A study of Mus musculus with 8 samples.

Results

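Saline-treated Shank3-deficient mice were compared with wild-type littermates in 6 of the series' 8 sequencing libraries, 3 per group. The libraries were chosen by their labels, with no use of measured values. Shank3-deficient mice were heterozygous for a C-terminal (exon 21) deletion of Shank3, received saline once daily for 3 days, and were sampled 1 day after the last injection. Wild-type mice carried no deletion, and no treatment of theirs is named apart from the protocol shared by the series, so genotype and saline injection cannot be told apart. All mice were male. Sample labels give an age of 5 to 6 weeks and the series text gives 5 to 8 weeks. Tissue is labelled as prefrontal cortical slices with the cell type neurons. The remaining 2 libraries, from Shank3-deficient mice given romidepsin at 0.25 mg/kg, entered the statistical fit to estimate spread and are not described. The deletion is carried by all cells of these mice.

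Shank3 encodes a scaffold of the postsynaptic density, the protein layer under excitatory synapses. It ties glutamate receptors, through Dlgap and Dlg proteins, to Homer and to the actin filaments of the dendritic spine. Loss of 1 copy of human SHANK3 causes Phelan-McDermid syndrome, in which autism is frequent. The prefrontal cortex takes part in social behaviour and in planning.

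Wild-type replicates are called WT1, WT2 and WT3 and saline replicates SAL1, SAL2 and SAL3. Values are CPM, read counts divided by the library total after TMM adjustment of it, and brought to the usual common total. They are suited to comparing 1 gene between libraries, and not different genes, since they are not per length. Counts on genes ran from 12046120 to 13280615 per wild-type library and from 7783537 to 15156318 per saline library. The neuronal genes Slc17a7 and Gad1 and the myelin gene Mbp were all present, Mbp at 1202 to 2442 CPM, so these libraries hold glial RNA besides that of neurons. In a principal component analysis SAL2 and WT3 lay at opposite ends of the first component, which held 34.8% of the variance. SAL2 also differed by base composition: the 20% of genes with the highest transcript GC content lay 0.09 below the 6-library mean (median, log2 scale), against 0.04 above it in SAL3. Labels do not say whether libraries came from separate animals, so p-values reflect the spread between libraries alone, which may be technical.

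Of 14809 genes tested, 1 passed the edgeR quasi-likelihood test at a Benjamini-Hochberg adjusted p under 0.05 (0.00675%), with 0 higher and 1 lower in saline. An unadjusted p under 0.05, used below only to describe gene groups, was reached by 1242 genes (8.39%), 531 higher (3.59%) and 711 lower (4.80%). Genes for which all 3 saline libraries lay outside the range of all 3 wild-type libraries numbered 1869 (12.6%), 927 higher (6.26%) and 942 lower (6.36%). Fold changes were above 0 for 51.3% of genes and below 0 for 48.7%. These percentages are the background for every count of group members below. For counts with 1 library left out, the shares of all genes higher and lower at an unadjusted p under 0.05 were 4.54% and 6.66% (WT1 left out), 2.27% and 3.50% (WT2), 4.68% and 5.23% (WT3), 3.44% and 5.35% (SAL1), 2.43% and 3.16% (SAL2), and 3.77% and 5.33% (SAL3). After the GC correction they were 3.77% and 4.58%. For a typical gene the 95% interval reached 0.26 on the log2 scale to either side of the fold change. It reached 0.19 for genes with a mean log2 CPM above 5 and 0.79 for those below 2.

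**Figure D1:**
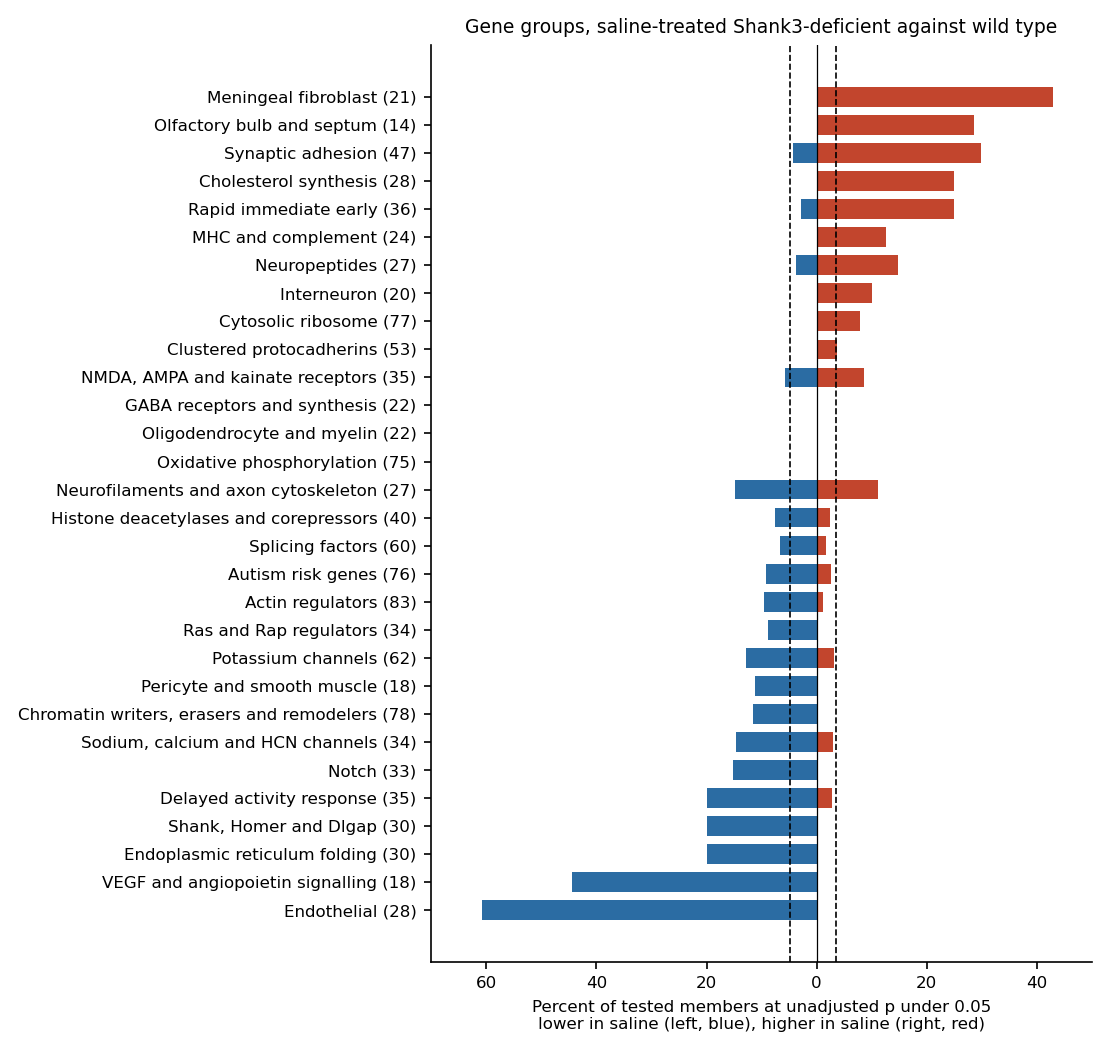
Share of each gene group's tested members (number in brackets) at an unadjusted p under 0.05, lower in saline to the left and higher to the right, in percent. Dashed lines mark the shares over all 14809 genes, 4.80% lower and 3.59% higher; endothelial markers (17 of 28 lower) and meningeal fibroblast markers (9 of 21 higher) lie at the extremes.

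Shank3 itself (chromosome 15, 89493013 to 89560261 in GRCm38) stood at 299, 308 and 348 CPM in the wild-type libraries and 316, 252 and 301 CPM in the saline libraries. The groups overlapped, with SAL2 lowest. Its fold change was 0.910-fold (95% interval 0.795 to 1.04) (adjusted p = 0.724, edgeR). Counts are summed over the gene, so reads on the exons that the deleted copy keeps are included and the counts do not check the genotype.

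Tmem181b-ps, a transcribed pseudogene on chromosome 17 (6439002 to 6450994), was the gene that passed. It fell, standing at 165, 195 and 222 CPM in wild type and 91.2, 63.8 and 75.7 in saline, and the groups did not overlap. The fold was 0.398-fold (95% interval 0.329 to 0.483), with an adjusted p of 0.00215 from edgeR. Of the 4234 different 50-base runs in its annotated GENCODE transcripts, 44.4% also occur in transcripts of Tmem181a. Over all other genes together, Tmem181a included, the share was 50.8%. Reads from such runs cannot be placed with certainty, so the values of these copies are uncertain. Tmem181a, which encodes a transmembrane protein, stood at 70.0, 72.8 and 72.4 CPM in wild type and 54.2, 50.2 and 56.6 in saline (adjusted p = 0.164, edgeR), also without overlap.

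Among the genes with the smallest p on the lower side, the regulators of transcription Cbfa2t3, Banp and Gse1 lie on chromosome 8. Cbfa2t3, a corepressor of the ETO family, stood at 58.0, 56.9 and 60.5 CPM in wild type and 42.2, 39.8 and 37.7 in saline (log2 fold change -0.55, SE 0.08; adjusted p = 0.0771, edgeR). Banp, which binds DNA at CpG-rich promoters, stood at 33.7, 38.9 and 40.0 CPM in wild type and 26.7, 22.5 and 19.5 in saline (adjusted p = 0.101, edgeR). Gse1, a subunit of a histone deacetylase and demethylase complex, stood at 93.7, 95.6 and 100.3 CPM in wild type and 71.4, 54.5 and 73.9 in saline (adjusted p = 0.164, edgeR). The 3 saline libraries lay below the 3 wild-type libraries for each of these genes.

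The rest of that side held genes of membranes, matrix and signalling. Prss23, a secreted serine protease, stood at 37.2, 32.4 and 29.6 CPM in wild type and 18.2, 19.6 and 22.7 in saline (log2 fold change -0.72, SE 0.12; adjusted p = 0.0797, edgeR). Plekha2, whose protein binds phosphoinositides, stood at 27.3, 26.6 and 26.1 CPM in wild type and 18.0, 14.6 and 20.1 in saline. Arl15, a small GTPase of the Arf-like family, stood at 55.8, 50.5 and 54.2 CPM in wild type and 40.3, 40.0 and 32.4 in saline, and SAL3 was its lowest library. Cdh24, a type II cadherin of cell junctions, had the largest log2 difference of these genes: it stood at 12.1, 10.5 and 13.6 CPM in wild type and 5.50, 3.67 and 8.08 in saline (log2 fold change -1.09, SE 0.22). Vwa1, a matrix protein of basement membranes, stood at 33.1, 34.7 and 33.6 CPM in wild type and 23.7, 22.7 and 27.1 in saline. Gfod1, an oxidoreductase-like gene, stood at 239.6, 261 and 235 CPM in wild type and 199, 189 and 172 in saline. For Plekha2, Arl15, Cdh24, Vwa1 and Gfod1 the adjusted p was 0.187 (edgeR), and all were separated without overlap.

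On the higher side the smallest p within that choice, which leaves out provisional symbols, belonged to Nrep, expressed in regenerating and developing neurons. It stood at 57.0, 61.0 and 52.7 CPM in wild type and 75.3, 74.2 and 73.6 in saline (log2 fold change 0.39, SE 0.08; adjusted p = 0.187, edgeR). Dpysl3, a collapsin response mediator of growth cones, stood at 53.2, 58.4 and 63.3 CPM in wild type and 75.2, 77.7 and 72.1 in saline (adjusted p = 0.285). Both varied little among the saline libraries, which all lay above wild type. Gng4, a G protein gamma subunit, stood at 48.1, 43.8 and 51.6 CPM in wild type and 57.9, 71.5 and 61.0 in saline. Crhbp, which binds corticotropin-releasing hormone and marks a set of interneurons, stood at 22.3, 21.1 and 24.2 CPM in wild type and 32.6, 26.9 and 33.5 in saline. Thbs2, an astrocyte-secreted thrombospondin that promotes synapse formation, stood at 6.82, 7.004 and 6.82 CPM in wild type and 10.7, 10.7 and 10.3 in saline. Ppm1k, the phosphatase that activates branched-chain amino acid breakdown, stood at 93.0, 91.2 and 80.7 CPM in wild type and 104, 121 and 109 in saline. Adjusted p lay between 0.271 and 0.294 for Gng4, Thbs2, Crhbp and Ppm1k (edgeR).

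**Figure D2:**
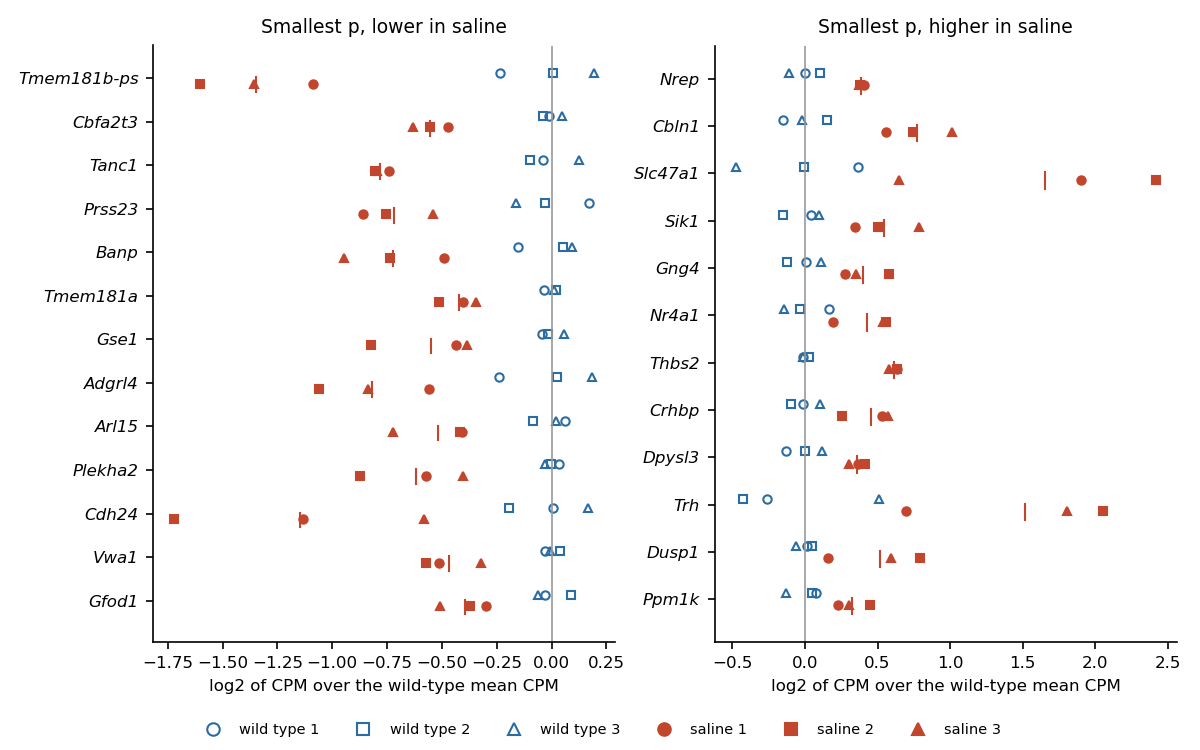
Level of each gene in each library as log2 of its CPM over the wild-type mean CPM, for Tmem181b-ps and the 12 genes with the smallest p on the lower side (left) and the 12 on the higher side (right). The choice of 12 left out provisional symbols and genes of low level. Blue open symbols are wild-type libraries, red filled symbols saline libraries, and the red bar is the mean of the 3 saline log2 values; in every gene shown the 3 saline libraries lie to 1 side of the 3 wild-type libraries, a separation that the choice by smallest p makes likely.

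Next come the largest differences among genes whose log2 CPM averaged 1 or more, at an unadjusted p under 0.01, a limit that leaves out larger differences in genes of lower level. Provisional symbols were left out here too. Robo3, an axon guidance receptor, stood at 24.6, 28.9 and 33.1 CPM in wild type and 8.58, 10.1 and 20.1 in saline, with SAL3 nearest to wild type (log2 fold change -1.22, SE 0.25; adjusted p = 0.248, edgeR). Wdfy1, an adaptor of endosomal immune receptors, stood at 61.2, 68.7 and 63.3 CPM in wild type and 42.8, 20.1 and 20.6 in saline, with SAL1 apart from the other saline libraries (adjusted p = 0.359). Pappa2, a protease that frees insulin-like growth factors, stood at 8.09, 8.06 and 3.84 CPM in wild type and 1.90, 2.31 and 3.85 in saline, and WT3 was as low as SAL3. Adam8, a membrane metalloprotease, stood at 3.12, 6.55 and 6.51 CPM in wild type and 3.41, 1.57 and 1.54 in saline, and its groups overlapped. On the higher side, Adamtsl3, a matrix glycoprotein, stood at 1.77, 0.753 and 1.57 CPM in wild type and 3.41, 5.87 and 2.05 in saline. Bche, butyrylcholinesterase, stood at 5.81, 4.52 and 5.25 CPM in wild type and 12.6, 14.8 and 5.26 in saline, with SAL3 at the level of wild type. Mgp, the matrix Gla protein of vessel walls and meninges, stood at 7.83, 7.46 and 9.02 CPM in wild type and 21.0, 19.7 and 10.3 in saline, also with SAL3 lowest of its group. None of these 7 genes passed (adjusted p 0.248 to 0.372, edgeR).

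The scaffold family to which Shank3 belongs was slightly lower. Of 30 tested scaffold genes 0 passed, and 20 had fold changes below 0. At an unadjusted p under 0.05 there were 0 higher and 6 lower (20%, against 4.80% of all genes), and the median log2 fold change was -0.03 (0.00 over all genes). Tanc1, which binds PSD-95 in the spine, stood at 22.99, 22.1 and 25.8 CPM in wild type and 14.2, 13.5 and 13.6 in saline (log2 fold change -0.78, SE 0.12; adjusted p = 0.0797, edgeR). Baiap2, also named IRSp53, which links Shank proteins to actin, stood at 409, 396 and 365 CPM in wild type and 324, 316 and 315 in saline (log2 fold change -0.29; adjusted p = 0.298). Sipa1l1, or SPAR, a Rap GTPase-activating protein of spines, stood at 620.0, 597 and 643 CPM in wild type and 546, 549.6 and 509 in saline. Synpo, which organizes the spine apparatus, stood at 331, 286 and 284 CPM in wild type and 264, 281 and 225 in saline. Saline libraries lay below wild type in each of these 4 genes. Dlgap3 and Lzts3 were chosen after their values were seen. Dlgap3, a direct Shank3 partner, stood at 466, 461 and 522 CPM in wild type and 451, 384 and 434 in saline, separated by a smaller gap, and Lzts3, a Shank3 binding protein, stood at 339, 322 and 275 CPM in wild type and 267, 273 and 285 in saline, where WT3 fell among the saline libraries. The related scaffolds Shank1 and Shank2 had log2 fold changes of -0.16 and -0.09. A library's score on a group averages, over the members, the log2 level minus the mean log2 level in wild type. For the scaffolds it was 0.02, -0.01 and -0.01 in wild type and -0.06, -0.08 and -0.10 in saline. Without SAL3 the count at an unadjusted p under 0.05 was 3 lower.

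Neighbouring groups of the spine were lower in small part. Actin regulators, which set spine shape, had 83 tested members: 1 was higher and 8 lower at an unadjusted p under 0.05 (9.64% lower), with a median of -0.03. Myh9, nonmuscle myosin IIA, stood at 131, 142 and 134 CPM in wild type and 116, 99.1 and 104 in saline (log2 fold change -0.35; adjusted p = 0.224, edgeR). Fmnl1, a formin that elongates actin filaments, stood at 172, 177 and 135 CPM in wild type and 120.5, 119 and 131 in saline. Arhgef2, a guanine nucleotide exchange factor bound to microtubules, stood at 143, 143 and 145 CPM in wild type and 122, 110.3 and 124 in saline. These 3 genes and Baiap2, which both lists hold, did not overlap between groups. Without WT2 the count was 5 lower. Of 34 Ras and Rap regulators, 3 were lower at that threshold (8.82%, against 4.80% of all genes) and 0 higher. Fold changes were above 0 for 16 of the 34, with a median of -0.01. The 3 lower genes were Rap GTPase-activating proteins. Sipa1 stood at 17.8, 14.2 and 15.7 CPM in wild type and 13.04, 10.7 and 12.1 in saline. Sipa1l1 is given above, and Sipa1l3 stood at 58.9, 58.7 and 61.1 CPM in wild type and 56.5, 53.8 and 44.4 in saline. The lower count was 5 without SAL1, and without SAL3 there were 1 higher and 2 lower. Rap1gap2, a member chosen with its values known, was not past that threshold with all libraries. Of the 16 alternative fits it passed only in the one without SAL1 (log2 fold change -3.47; adjusted p = 1.6e-09, edgeR). That value rests on SAL2 and SAL3 alone in the saline group and does not hold with SAL1 included.

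Glutamate receptors had no common direction. There were 35 tested genes for NMDA, AMPA and kainate receptors and their auxiliary subunits. At an unadjusted p under 0.05, 3 were higher (8.57%) and 2 lower (5.71%), with a median of 0.01. Grin3a, the NMDA subunit of immature synapses, stood at 62.9, 60.5 and 66.2 CPM in wild type and 84.5, 71.1 and 68.5 in saline (log2 fold change 0.25; adjusted p = 0.445, edgeR). Shisa7, an auxiliary subunit, stood lower, at 183, 199 and 213 CPM in wild type and 179, 158 and 160.1 in saline, and Grin2c, an NMDA subunit, at 62.7, 63.2 and 90.7 CPM in wild type and 61.2, 46.4 and 60.8 in saline. The obligatory NMDA subunit Grin1 and the AMPA subunit Gria1 had log2 fold changes of -0.05 and 0.09. With 1 library left out the counts ran from 1 to 4 higher and from 1 to 4 lower. Of 22 GABA receptor and synthesis genes 18 had fold changes above 0 and 0 were past an unadjusted p of 0.05, with a median of 0.08. Without WT3, 12 of 22 were above 0 and 3 were past that threshold, all higher, with a median of 0.02, and without SAL2 the median was 0.04.

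Synaptic adhesion molecules were the synaptic group with the most members on the higher side. Of 47 tested, 32 had fold changes above 0 and 0 passed. At an unadjusted p under 0.05, 14 were higher (29.8%, against 3.59% of all genes) and 2 lower, and groups did not overlap for 14 higher (29.8%, against 6.26%) and 3 lower genes. The median log2 fold change was 0.13.

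Cbln1, a cerebellin that binds presynaptic neurexin, stood at 6.65, 8.21 and 7.29 CPM in wild type and 10.9, 12.4 and 14.9 in saline (log2 fold change 0.76, SE 0.16; adjusted p = 0.19, edgeR). Cadm1, a SynCAM that binds across the cleft, stood at 219, 221 and 237 CPM in wild type and 280.1, 294 and 255 in saline (log2 fold change 0.30; adjusted p = 0.298). Contactins, GPI-anchored adhesion molecules of axons, were represented by Cntn6 at 14.8, 13.3 and 19.05 CPM in wild type and 22.3, 23.4 and 21.2 in saline. The following members were chosen after their values were seen. Cntn1 stood at 442, 415 and 349.6 CPM in wild type and 473, 524 and 499.8 in saline, and Cntnap4, a neurexin-like protein of interneuron terminals, at 41.5, 45.2 and 34.9 CPM in wild type and 49.6, 51.1 and 57.1 in saline. The postsynaptic neurexin partner Nlgn1 stood at 60.7, 65.8 and 55.1 CPM in wild type and 73.1, 79.7 and 66.9 in saline. Flrt2, a latrophilin ligand, stood at 92.1, 95.0 and 73.1 CPM in wild type and 106, 123 and 98.9 in saline. All of these 7 genes were higher in every saline library than in every wild-type library, and SAL2 was the highest library for 5 of them, Cadm1, Cntn6, Cntn1, Flrt2 and Nlgn1.

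The 2 adhesion genes on the lower side were Adgrl2, a latrophilin, at 111, 113 and 111 CPM in wild type and 97.4, 82.8 and 91.4 in saline, and, as a choice made with its values known, Cntnap1, at 293, 309 and 243 CPM in wild type and 209, 221 and 255 in saline. Cntnap1 is the axonal protein of paranodal junctions with myelin. The group's library scores were 0.04, 0.03 and -0.07 in wild type and 0.07, 0.22 and 0.07 in saline. Transcripts of this group had a median GC of 47.1%, against 49.8% over all genes. Without SAL2, 9 were higher and 2 lower at an unadjusted p under 0.05, with a median of 0.05, and after a correction for GC content 14 were higher and 2 lower. Clustered protocadherins, which give neurons surface identities, had fold changes above 0 in 38 of 53, with 2 higher and 0 lower at that threshold (3.77% higher) and a median of 0.14. The median was 0.06 without SAL3 and 0.08 without WT3, and without WT1 there were 4 higher and 1 lower. They share exons, and counts of single members are uncertain.

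**Figure D3:**
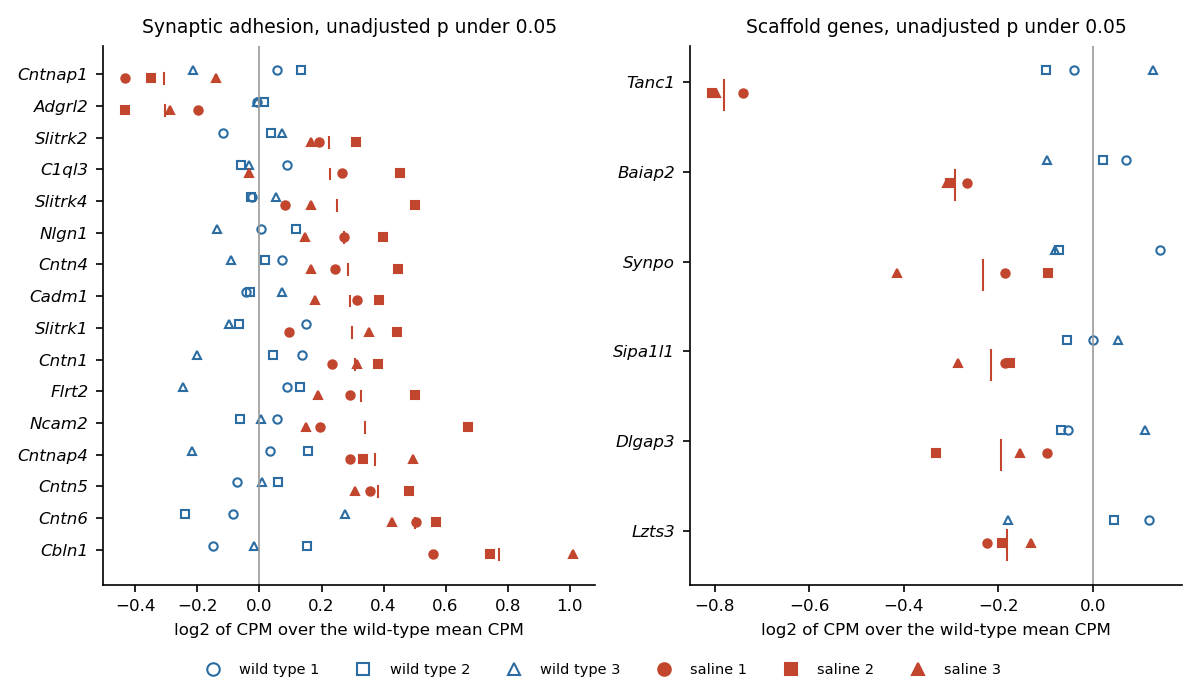
Level in each library as log2 of CPM over the wild-type mean CPM for the synaptic adhesion genes (left) and the scaffold genes (right) at an unadjusted p under 0.05. Blue open symbols are wild type, red filled symbols saline, and the bar is the saline mean; SAL2 is furthest right for most adhesion genes, while the scaffold gene Tanc1 lies furthest left.

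Several ion channel genes had lower values in saline. Among 62 potassium channel genes 2 were higher and 8 lower at an unadjusted p under 0.05 (12.9% lower, against 4.80%), with a median of -0.01, and 0 passed. Kcnt1, a sodium-activated channel, stood at 142, 147 and 146 CPM in wild type and 112, 96.6 and 128 in saline (log2 fold change -0.37; adjusted p = 0.294, edgeR). Kcnip2, an auxiliary subunit of Kv4 channels, stood at 117, 109.9 and 118 CPM in wild type and 102, 99.8 and 94.8 in saline. Both genes were separated between groups. Without SAL1 the count was 6 higher and 6 lower, and without WT2 it was 3 higher and 5 lower.

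Of 34 sodium, calcium and HCN channel genes 1 was higher and 5 lower at that threshold (14.7% lower). Hcn2, a pacemaker channel, stood at 123, 125 and 127 CPM in wild type and 109, 85.9 and 113 in saline, with SAL2 lowest. Scn4b, an auxiliary sodium channel subunit of fast-firing neurons, stood at 83.9, 92.3 and 46.3 CPM in wild type and 26.3, 33.4 and 47.6 in saline (log2 fold change -1.08, SE 0.31; adjusted p = 0.425, edgeR), where WT3 lay at the level of SAL3. Cacna1h, a low-threshold calcium channel, stood at 75.5, 78.1 and 96.0 CPM in wild type and 74.4, 68.6 and 69.8 in saline, without overlap. The lower count was 11 without WT3, 2 after the GC correction, and 3 without WT1, WT2, SAL1 or SAL2.

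Cytoskeletal genes of the axon went both ways. Of 27 tested, 3 were higher (11.1%) and 4 lower (14.8%) at an unadjusted p under 0.05. Nefh, the heavy neurofilament subunit of large axons, stood at 60.6, 70.5 and 48.7 CPM in wild type and 40.9, 38.9 and 44.4 in saline (log2 fold change -0.54, SE 0.12; adjusted p = 0.227, edgeR). Ina, a further intermediate filament subunit, stood at 166, 155 and 136 CPM in wild type and 118, 122 and 135 in saline, and Sptbn4, the spectrin of axon initial segments and nodes, at 252, 253 and 269.8 CPM in wild type and 229, 185 and 229 in saline. All 3 were separated. The medium subunit Nefm, picked with its values known, stood at 236, 249 and 143 CPM in wild type and 124, 139.9 and 165 in saline, with WT3 inside the saline range. On the higher side stood Dpysl3 (above) and, chosen after their values were seen, the growth cone gene Gap43, at 269, 213 and 217 CPM in wild type and 263, 294 and 265 in saline, and the tubulin regulator Stmn4, at 205, 178 and 176 CPM in wild type and 212, 217 and 207 in saline. The higher count was 1 without WT2 or SAL2 and 7 without WT1.

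Beside these axonal values, 21 of 22 oligodendrocyte and myelin markers had fold changes below 0 (median -0.14), and 0 reached an unadjusted p of 0.05. Their scores varied within both groups, at -0.42, 0.25 and 0.18 in wild type and -0.19, -0.50 and 0.28 in saline. The median was -0.33 without WT1, -0.06 without WT2, -0.03 without WT3, 0.01 without SAL2 and -0.37 without SAL3. The part of myelin content in the axonal values was not tested.

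Neuropeptide genes, which mark distinct neuron types, scored higher in each saline library: 0.01, -0.03 and 0.02 in wild type and 0.13, 0.17 and 0.21 in saline. Of 27 tested 4 were higher (14.8%) and 1 lower at an unadjusted p under 0.05, and the median log2 fold change was 0.09. Trh and Nts, both of low level, enter the scores with large log2 fold changes. Scores of some other groups were also separated, in either direction. Trh, thyrotropin-releasing hormone, stood at 1.01, 0.904 and 1.72 CPM in wild type and 1.97, 5.03 and 4.23 in saline (log2 fold change 1.57, SE 0.39; adjusted p = 0.294, edgeR). Nts, neurotensin, stood at 0.337, 0.452 and 0.392 CPM in wild type and 0.917, 1.47 and 1.15 in saline (log2 fold change 1.52, SE 0.46). Tac1, the precursor of substance P, stood lower, at 16.7, 17.7 and 19.2 CPM in wild type and 15.7, 11.9 and 13.1 in saline, without overlap. Adcyap1, the precursor of the peptide PACAP, stood at 29.0, 28.0 and 23.9 CPM in wild type and 29.0, 35.7 and 32.1 in saline. Without WT2 there were 2 higher. Of 20 interneuron markers 2 were higher at that threshold (10%) and 0 lower: Calb2, calretinin, at 12.2, 9.94 and 19.99 CPM in wild type and 16.9, 27.5 and 23.7 in saline, and the serotonin receptor Htr3a, at 5.14, 4.90 and 7.84 CPM in wild type and 10.9, 8.49 and 6.93 in saline, with overlap in both. The interneuron count was 0 without WT2, 1 without WT1 or SAL1, 5 higher and 3 lower without WT3, and 4 higher and 1 lower without SAL3.

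Markers of other brain regions were uneven between libraries beside these values. Of 14 olfactory bulb and septum markers, a list that also holds Trh, all had fold changes above 0, and 4 were higher at an unadjusted p under 0.05 (28.6%), with a median of 0.40. Groups did not overlap for 2 (14.3%, against 6.26%). Their scores were -0.20, -0.29 and 0.49 in wild type and 0.02, 0.90 and 0.79 in saline. Eomes, a transcription factor of olfactory bulb projection neurons, stood at 0.337, 0.377 and 0.941 CPM in wild type and 0.131, 3.77 and 4.87 in saline, so SAL1 was at its lowest level of all and the other saline libraries at the highest. Fxyd6, a regulator of the sodium pump, stood at 187, 142 and 173 CPM in wild type and 195, 239 and 201 in saline, and Synpr, a vesicle protein, at 107, 88.9 and 99.9 CPM in wild type and 121, 151 and 98.5 in saline. The count was 8 without SAL1 (median 0.69), 7 without WT3 (median 0.67), and 2 without WT2 or SAL2. Of 14 thalamus and hypothalamus markers, which include Calb2, 11 had fold changes above 0 and 3 were higher (21.4%), with 0 lower and scores of -0.14, -0.12 and 0.26 in wild type and 0.26, 0.18 and 0.11 in saline. Their count was 8 without WT3 and 1 without WT1 or SAL2. Striatum markers went the other way: of 15 tested 1 was higher (6.67%) and 3 lower (20%), with a median of -0.05. Their scores were -0.02, -0.02 and 0.04 in wild type and -0.08, -0.09 and -0.14 in saline. Tac1 and the sodium channel gene Scn4b, both described above, were among the lower striatum markers. The part of these marker lists in the neuropeptide, interneuron and Scn4b values was not tested.

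Genes that respond to neuronal activity are described by their timing, and the difference between both kinds was not tested. Rapid immediate early genes are switched on within minutes by synaptic calcium, partly through the factor CREB at the cyclic AMP response element, while delayed genes take longer and often need new protein. Of 36 tested rapid genes 25 had fold changes above 0, and 9 were higher and 1 lower at an unadjusted p under 0.05 (25.0% higher, against 3.59%). Groups did not overlap for 6 higher (16.7%, against 6.26%), and the median was 0.11, or 0.18 without WT3 or SAL1. With 1 library left out the median of the rapid genes ran from 0.08 to 0.18. Their higher count ran from 6 to 10 and their lower count from 0 to 2. Of 35 delayed genes 1 was higher and 7 lower (20% lower, against 4.80%), with a median of -0.05, or 0.01 without WT1 and -0.09 without WT3. None passed.

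Promoters of 5 rapid genes at an unadjusted p under 0.05 are shown because they carry forms of that element. The sequences are the 200 bases before the transcription start in RefSeq (GRCm38.p6), 5′ to 3′ on the strand of the gene, with the element TGACGTCA and its core TGACG, in either direction, in capitals.
Nr4a1, chr15:101266646-101266845, plus strand: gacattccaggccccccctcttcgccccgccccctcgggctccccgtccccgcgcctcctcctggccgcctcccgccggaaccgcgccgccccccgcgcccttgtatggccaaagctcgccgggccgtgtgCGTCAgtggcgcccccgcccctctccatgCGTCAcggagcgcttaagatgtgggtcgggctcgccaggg
Dusp1, chr17:26508473-26508672, minus strand: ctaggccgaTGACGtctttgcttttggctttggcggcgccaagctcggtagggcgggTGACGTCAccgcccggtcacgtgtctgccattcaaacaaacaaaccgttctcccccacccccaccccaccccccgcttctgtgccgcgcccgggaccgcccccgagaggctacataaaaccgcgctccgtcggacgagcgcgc
Fos, chr12:85473690-85473889, plus strand: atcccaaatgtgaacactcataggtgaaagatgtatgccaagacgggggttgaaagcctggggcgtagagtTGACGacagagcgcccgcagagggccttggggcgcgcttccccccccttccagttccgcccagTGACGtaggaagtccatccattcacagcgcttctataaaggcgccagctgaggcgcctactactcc
Junb, chr8:84978749-84978948, minus strand: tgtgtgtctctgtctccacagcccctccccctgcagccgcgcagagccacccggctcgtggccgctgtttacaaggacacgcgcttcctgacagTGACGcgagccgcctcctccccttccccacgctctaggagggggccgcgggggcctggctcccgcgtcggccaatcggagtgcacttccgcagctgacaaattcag
Btg2, chr1:134079156-134079355, minus strand: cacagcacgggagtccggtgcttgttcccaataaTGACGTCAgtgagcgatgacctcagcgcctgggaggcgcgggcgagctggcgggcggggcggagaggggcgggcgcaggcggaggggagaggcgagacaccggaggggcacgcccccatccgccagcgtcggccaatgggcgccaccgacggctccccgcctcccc

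Dusp1 and Btg2 hold the whole element, beginning at positions -143 and -166 from the start, and the other 3 hold only the core. Over 250 bases before a start, the core on either strand was found in 19 of the 28 rapid genes with a window and in 13 of 28 delayed genes, against 29.6% of the 11202 tested genes with a window. The whole element, each copy of which contains the core in both directions, was found in 4 rapid and 3 delayed genes, against 3.02% of those tested genes. The rapid genes Arc, Cyr61, Egr1, Egr3, Ier2, Klf10, Sik1 and Trib1 have no window and are not in these shares.

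In SAL1 the levels of Nr4a1, Dusp1, Fos and Junb were nearer to wild type than in the other saline libraries. Sik1, a CREB-induced kinase, stood at 16.6, 14.5 and 17.2 CPM in wild type and 20.4, 22.8 and 27.8 in saline (log2 fold change 0.54, SE 0.13; adjusted p = 0.271, edgeR). Nr4a1, a nuclear receptor, stood at 139, 121 and 112 CPM in wild type and 142, 183 and 181 in saline (log2 fold change 0.44; adjusted p = 0.271), with only a narrow gap between SAL1 and WT1. Dusp1, the phosphatase that switches off MAP kinases, stood at 34.3, 35.1 and 32.6 CPM in wild type and 37.9, 59.0 and 51.3 in saline (log2 fold change 0.53; adjusted p = 0.294). Fos, a subunit of the AP-1 factor, stood at 47.6, 38.9 and 43.0 CPM in wild type and 47.0, 71.3 and 64.5 in saline, so SAL1 lay within the wild-type range. The AP-1 subunit Junb, at 73.6, 52.6 and 68.4 CPM in wild type and 70.8, 110.0 and 95.0 in saline, and the antiproliferative gene Btg2, at 14.8, 9.11 and 21.7 CPM in wild type and 19.6, 37.1 and 22.96 in saline, were chosen after their values were seen. The rapid group scored 0.00, -0.11 and 0.11 in wild type and -0.04, 0.27 and 0.19 in saline. Egr3, also picked with its values known, is a rapid gene on the lower side, at 344, 327 and 219 CPM in wild type and 229, 245 and 237 in saline, with WT3 at the lowest level of all.

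Delayed genes were led on the lower side by Pim1, a serine kinase, at 4.63, 3.31 and 4.47 CPM in wild type and 1.77, 2.62 and 2.82 in saline (log2 fold change -0.82, SE 0.27; adjusted p = 0.417, edgeR). Kcna1, a Kv1 channel of axons, stood at 191, 199.97 and 157 CPM in wild type and 138, 146 and 166 in saline. Spred2, an inhibitor of Ras signalling, stood at 91.1, 95.2 and 80.4 CPM in wild type and 76.9, 78.9 and 69.1 in saline. Cgref1, a secreted growth regulator, was the member on the higher side, at 20.6, 19.4 and 20.1 CPM in wild type and 24.2, 27.0 and 24.4 in saline. Inhba, the activin A subunit, picked with its values known, stood at 6.82, 4.07 and 4.63 CPM in wild type and 2.95, 3.46 and 3.08 in saline. Apart from Kcna1, these genes were separated between groups. The lower count was 13 without WT3, 3 without WT2 and 2 without SAL1.

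**Figure D4:**
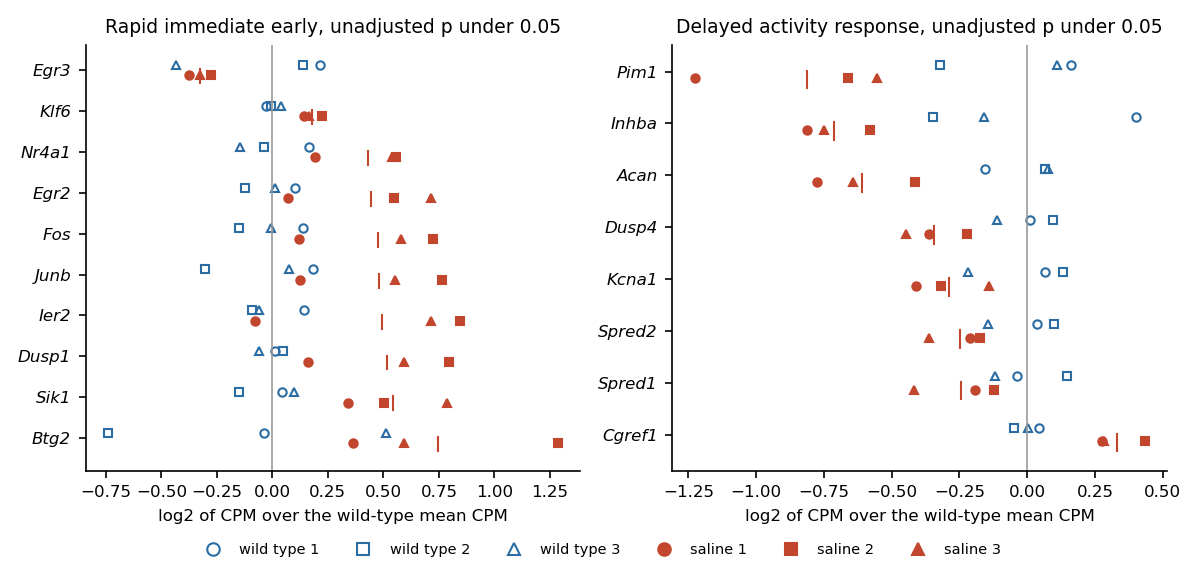
Level in each library as log2 of CPM over the wild-type mean CPM for the rapid immediate early genes (left) and delayed activity genes (right) at an unadjusted p under 0.05. Blue open symbols are wild type, red filled symbols saline, and the bar is the saline mean; SAL1 (circles) lies near wild type for Fos, Egr2, Junb and Ier2, and 7 of the 8 delayed genes shown lie to the left.

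Chromatin regulators stood slightly lower. Of 78 tested writers, erasers and remodelers 0 were higher and 9 lower at an unadjusted p under 0.05 (11.5%, against 4.80%), groups did not overlap for 1 higher and 14 lower (17.9%, against 6.36%), and the median was -0.05. Tet3, which oxidizes methylated cytosine, stood at 100.4, 111 and 108 CPM in wild type and 87.0, 80.7 and 92.5 in saline (log2 fold change -0.29; adjusted p = 0.317, edgeR). Kmt2a, a histone H3 lysine 4 methyltransferase, stood at 237, 243 and 280.3 CPM in wild type and 227, 187 and 206 in saline, and its relative Kmt2c at 114, 119 and 152 CPM in wild type and 111, 106 and 110.3 in saline. Kdm5c, a demethylase of the same residue, stood at 85.7, 92.3 and 92.3 CPM in wild type and 79.7, 76.1 and 79.4 in saline. All 4 were separated, by small gaps for Kmt2c. The count was 4 lower with DESeq2, 3 higher and 4 lower without WT3, and 5 lower without WT2 or SAL2.

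Of 40 histone deacetylases and corepressors 1 was higher (2.5%, against 3.59% of all genes) and 3 lower (7.5%, against 4.80%) at that threshold. Cbfa2t3, described above, was one of the lower members. Hdac7, a class IIa deacetylase expressed in endothelium, stood at 25.4, 25.8 and 36.2 CPM in wild type and 22.3, 17.0 and 27.2 in saline, and Hdac9, of the same class, stood higher at 64.1, 56.6 and 53.4 CPM in wild type and 63.1, 81.7 and 61.2 in saline, both with overlap. Group scores were -0.03, -0.01 and 0.04 in wild type and -0.04, -0.11 and -0.05 in saline. SAL1 thus lay only just below WT1. Splicing factors had 42 of 60 fold changes below 0, with 1 higher (1.67%) and 4 lower (6.67%, against 4.80%) at that threshold. Hnrnph1, an RNA-binding repressor of exons, stood at 184, 206 and 216 CPM in wild type and 177, 165 and 169.9 in saline, and Srrm1, a splicing coactivator, at 104, 114 and 127 CPM in wild type and 99.4, 83.7 and 104 in saline. Their lower count was 16 without WT1, 10 without SAL1 or after a correction for GC content, 2 without WT2 and 1 without SAL2.

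Endothelial genes were the group with the largest share on the lower side of the 30 described. In bulk tissue fewer vessel cells and less RNA per vessel cell cannot be told apart. Of 28 markers 25 had fold changes below 0 and 0 passed. At an unadjusted p under 0.05 there were 0 higher and 17 lower (60.7%, against 4.80%), groups did not overlap for 13 lower (46.4%, against 6.36%), and the median was -0.42. Adgrl4, an angiogenic adhesion receptor, stood at 20.2, 24.3 and 27.0 CPM in wild type and 16.2, 11.4 and 13.3 in saline (log2 fold change -0.79, SE 0.15; adjusted p = 0.183, edgeR). Flt1, a VEGF receptor, stood at 56.5, 59.5 and 69.4 CPM in wild type and 47.8, 31.9 and 38.3 in saline (log2 fold change -0.64; adjusted p = 0.19). Eng, an endothelial coreceptor for TGF-beta, stood at 22.99, 25.0 and 24.9 CPM in wild type and 19, 15.6 and 17.7 in saline. Pecam1, an adhesion molecule of endothelial junctions, stood at 19.3, 24.0 and 25.2 CPM in wild type and 18.2, 12.3 and 14.0 in saline. In these 4 genes every saline library was below every wild-type library, and SAL2 was lowest.

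The endothelial score was -0.14, -0.02 and 0.16 in wild type and -0.14, -0.65 and -0.37 in saline, so SAL1 was at the level of WT1. Receptors and ligands of vessel growth gave 0 higher and 8 lower of 18 (44.4%), among them Kdr, the main VEGF receptor, at 14.2, 16.1 and 16.8 CPM in wild type and 12.5, 9.12 and 11.5 in saline, Tek, the angiopoietin receptor, at 16.4, 14.5 and 22.9 CPM in wild type and 13.5, 11.3 and 10.9 in saline, and the ligand Apln, apelin, at 37.6, 51.8 and 44.3 CPM in wild type and 38.7, 27.2 and 31.7 in saline. Of 18 pericyte and smooth muscle genes 10 had fold changes above 0, with 0 higher and 2 lower (11.1%) at that threshold and a median of 0.02. Their direction turned with the library left out: without SAL1 2 were above 0 and 16 below, with a median of -0.29, and the medians were -0.09 without WT1 and -0.08 without WT2. Rgs5, a signalling regulator of pericytes, stood at 47.7, 51.9 and 57.5 CPM in wild type and 44.5, 36.4 and 39.0 in saline (adjusted p = 0.325, edgeR), and Abcc9, a potassium channel subunit of pericytes, at 9.18, 11.9 and 11.1 CPM in wild type and 9.70, 6.92 and 6.93 in saline. The endothelial count was 10 lower without WT3 and 10 without SAL2, with medians of -0.31 and -0.30. The vessel growth count was 5 without SAL2.

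Meningeal fibroblast markers stood on the other side. Of 21 markers 20 had fold changes above 0, and 9 were higher at an unadjusted p under 0.05 (42.9%) with 0 lower and a median of 0.63. Groups did not overlap for 2 of the 21 (9.52% higher, against 6.26%). Slc47a1, an organic cation transporter of the meninges, stood at 1.26, 0.979 and 0.706 CPM in wild type and 3.67, 5.24 and 1.54 in saline (log2 fold change 1.85, SE 0.42; adjusted p = 0.248, edgeR). Islr, a fibroblast matrix protein, stood at 10.02, 8.96 and 13.3 CPM in wild type and 16.4, 17.4 and 14.7 in saline. Ogn, osteoglycin, stood at 5.64, 4.07 and 6.82 CPM in wild type and 14.7, 10.9 and 4.87 in saline, and Col3a1, a fibrillar collagen, at 3.54, 3.77 and 3.998 CPM in wild type and 7.14, 8.59 and 3.85 in saline. SAL3 lay at the level of wild type for Ogn and Col3a1, and the scores were -0.11, -0.21 and 0.31 in wild type and 0.99, 0.76 and -0.16 in saline. The count was 17 without SAL3, 2 without SAL1 (median 0.33), 3 without SAL2, and 4 without WT1 or WT2. The part of meningeal tissue in the values of Mgp, Bche and Slc47a1 was not tested.

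**Figure D5:**
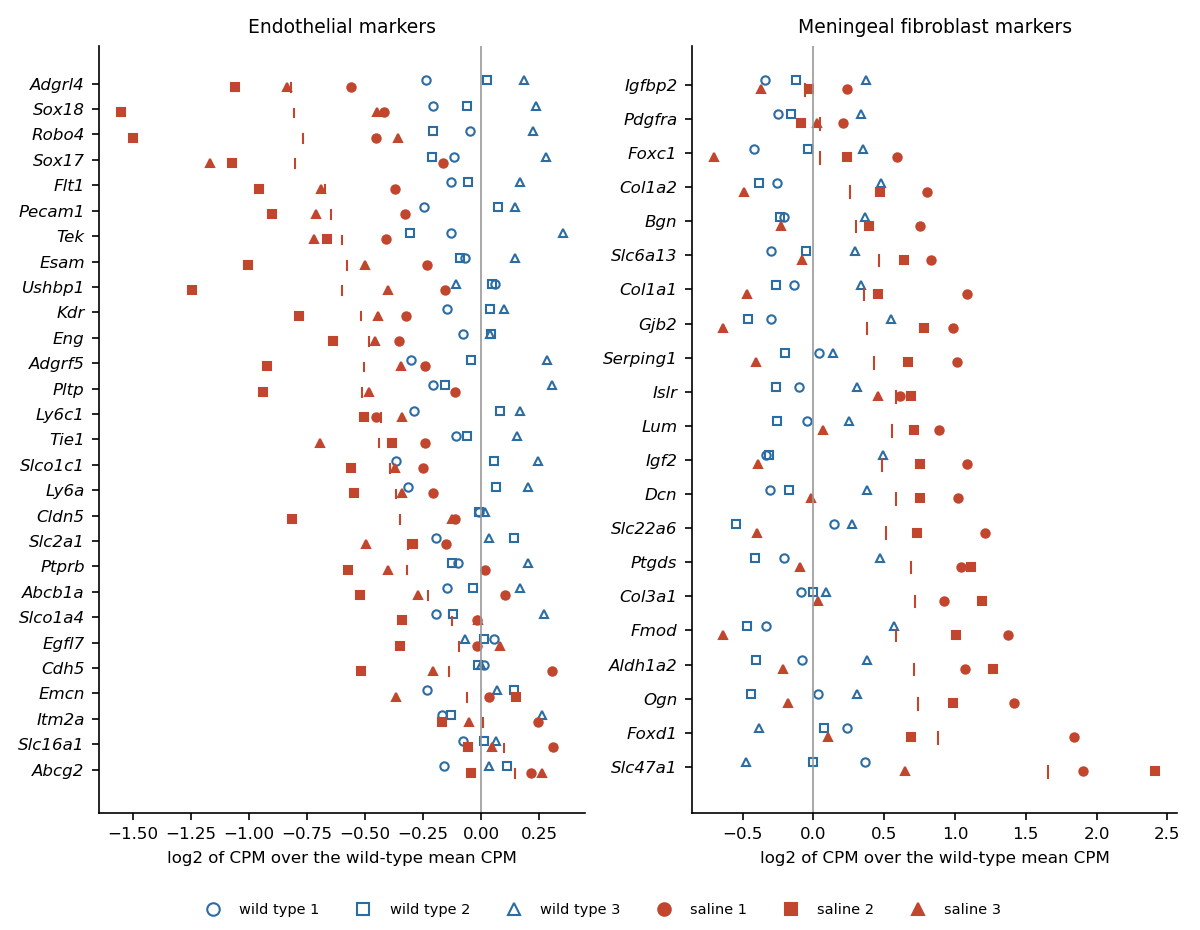
Level of every tested endothelial marker (left) and meningeal fibroblast marker (right) in each library, as log2 of CPM over the wild-type mean CPM. Blue open symbols are wild type, red filled symbols saline, and the bar is the saline mean; SAL2 (squares) is lowest for most endothelial markers, and for meningeal markers SAL1 and SAL2 lie right of SAL3 (triangles).

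Notch pathway genes, which act in vessels and in glia, had 0 higher and 5 lower of 33 at an unadjusted p under 0.05 (15.2%). Numb, an intracellular inhibitor of Notch, stood at 67.1, 64.9 and 67.1 CPM in wild type and 56.3, 55.7 and 50.02 in saline (log2 fold change -0.29; adjusted p = 0.345, edgeR), and its relative Numbl at 122, 112 and 112 CPM in wild type and 100.1, 99.6 and 103 in saline. The target Hes1 stood at 9.43, 11.3 and 9.33 CPM in wild type and 7.01, 6.81 and 7.95 in saline, and the ligand Dll1 at 5.14, 6.10 and 7.21 CPM in wild type and 5.05, 2.51 and 3.85 in saline. These 4 genes were separated between groups, and the fifth was the endothelial receptor Notch4, chosen after its values were seen. Inhibitors, a target and a ligand of the pathway were thus all among the lower members. Without SAL2 the count was 3.

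Genes of antigen presentation and complement scored higher in each saline library, from -0.05 to 0.05 in wild type and 0.32, 0.24 and 0.13 in saline. Of 24 tested 3 were higher (12.5%) and 0 lower at that threshold, and the median log2 fold change was 0.12. H2-Eb1, a class II histocompatibility chain of antigen-presenting cells, stood at 0.758, 1.28 and 0.549 CPM in wild type and 2.42, 2.83 and 1.28 in saline (log2 fold change 1.35, SE 0.41; adjusted p = 0.378, edgeR). Cd59a, which blocks the complement pore, stood at 2.695, 3.31 and 2.82 CPM in wild type and 4.13, 3.88 and 4.87 in saline, without overlap. Without WT1 or SAL1 there was 1.

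Protein folding genes of the endoplasmic reticulum stood lower: 24 of 30 fold changes were below 0, with 0 higher and 6 lower at an unadjusted p under 0.05 (20%) and a median of -0.12. Sdf2l1, a cofactor of the chaperone BiP, stood at 14.2, 23.9 and 16.4 CPM in wild type and 11.5, 13.1 and 10.5 in saline (log2 fold change -0.63, SE 0.18; adjusted p = 0.359, edgeR). Herpud1, a scaffold of the degradation complex, stood at 45.4, 56.4 and 48.6 CPM in wild type and 39.6, 41.9 and 37.4 in saline. Syvn1, the ubiquitin ligase of that complex, stood at 53.7, 55.0 and 55.5 CPM in wild type and 48.0, 42.5 and 45.8 in saline. Manf, a secreted stress-induced factor, stood at 54.6, 68.4 and 56.5 CPM in wild type and 47.0, 49.7 and 41.0 in saline. Saline libraries lay below wild type in all 4. With 1 library left out the lower count ran from 4 to 10, the latter without SAL2, and the median from -0.19 to -0.08.

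Cytosolic ribosomal protein genes had 74 of 77 fold changes above 0, with 6 higher (7.79%) and 0 lower at an unadjusted p under 0.05, and a median of 0.08. Groups did not overlap for 16 higher (20.8%, against 6.26%). Rpl7 stood at 184, 178 and 188 CPM in wild type and 212, 209 and 210.5 in saline, Rpl10a at 113, 106 and 112 CPM in wild type and 123, 128 and 129.8 in saline, and Rpl31 at 149, 139.6 and 160.2 CPM in wild type and 176, 175 and 169 in saline. Many processed copies of these genes exist, so their counts are uncertain. The count was 26 without WT3, 11 after the GC correction, 3 without SAL1 and 1 without WT2, and with 1 library left out the median ran from 0.04 to 0.13. Nuclear-encoded oxidative phosphorylation genes had 57 of 75 fold changes above 0 and 0 past that threshold, with a median of 0.05. Without WT3, 38 were above 0 and 37 below, with a median of 0.0005, and without SAL2 the median was 0.03. Without WT1 there were 5 higher and a median of 0.08, and without SAL1 there were 2 higher.

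Cholesterol synthesis genes, which neurons and astrocytes share in making membrane, had 24 of 28 fold changes above 0, with 7 higher (25.0%, against 3.59%) and 0 lower at that threshold, and a median of 0.12. Acat2, a thiolase that starts the pathway, stood at 21.3, 22.1 and 23.7 CPM in wild type and 26.4, 26.2 and 29.0 in saline (log2 fold change 0.28; adjusted p = 0.445, edgeR). Fdft1, squalene synthase, stood at 110.3, 108 and 99.6 CPM in wild type and 116, 121 and 124 in saline. Groups did not overlap for either gene. The scores were -0.02, -0.03 and 0.05 in wild type and 0.12, 0.01 and 0.23 in saline, and the count was 1 without SAL3 (median 0.06) and 2 without WT2.

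Among 76 tested autism risk genes 38 had fold changes above 0 and 38 below, with 2 higher (2.63%) and 7 lower (9.21%) at an unadjusted p under 0.05, and 0 passed. Kmt2a, Kmt2c, Kdm5c and Cacna1h, already named, were 4 of the lower genes, and Rai1, a chromatin-binding regulator that underlies Smith-Magenis syndrome, stood at 99.6, 102 and 101 CPM in wild type and 89.4, 77.4 and 86.1 in saline without overlap. The lower count was 3 without WT3 and 4 without SAL2.

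Base composition moved with these shares across all genes. From the 10% of genes with the lowest transcript GC content to the 10% with the highest, the share lower at an unadjusted p under 0.05 went from 2.73% to 8.97% and the share higher from 5.05% to 2.38%. Without SAL2 the lower share went from 2.45% to 4.76%, and the higher share was 2.59% at both ends. After the GC correction 559 genes were higher and 678 lower. The part of base composition in single results was not tested beyond that correction.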

How the data were processed

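Polyadenylated RNA of 6 of 8 libraries was compared. Per the submitters' processing notes the authors used bcl2fastq 2.17.1.14, TopHat2 2.1.1 and HTSeq 0.6.1 with mm10. The deposited tables hold whole-number counts for each gene symbol, not normalized. Strand setting and annotation are not given in the sources, so overlapping and antisense genes are uncertain. Rows naming no gene were left out: in the 5 libraries that list them, 32.4 to 35.3% of counted records lay on genes, 48.0 to 49.3% in no feature and 15.5 to 18.1% were not unique. Saline replicate 1 lists no such rows.

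Of 24420 genes in all tables, 9611 were removed by edgeR's filterByExpr. Counts of all 8 libraries were fitted with edgeR 4.0.16 in R 4.3.3 (trimmed-mean scaling, robust quasi-likelihood), and saline minus wild type was tested with Benjamini-Hochberg adjustment. Members and lists were chosen with earlier results of these data known, and no list was tested. Named genes were Shank3, the passing gene and the 2 to 4 leading or role-defining members of each list. Added per direction were the 12 with the smallest p and the 5 largest changes at an unadjusted p under 0.01. That choice was among genes whose log2 CPM averaged 1 or more, and it left out provisional symbols (Gm plus digits, endings in Rik or -ps, clone names). On data simulated for this comparison (14809 genes), edgeR recovered 76% of 1.5-fold and 99% of 2-fold changes, and 8.38% of its calls were false. Changes were planted only in genes above a set level, and in many more genes than passed here. The simulated libraries held no outlying library or GC trend. These rates therefore do not hold for genes of low level and may differ for the real libraries. Alternatives were DESeq2 1.42.0 and its scaling, limma 3.58.1 (voom), no filter, 2 groups only, a fit that is not robust, a replicate block, leaving out each library and, added after the data were seen, a correction for transcript GC (GENCODE M21, values for 96.3% of genes). Positions, promoters and gene names come from RefSeq tables of GRCm38.p6. No 2 libraries had counts that agreed within sampling noise. Some results are not reported here.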

Additional observations from a re-analysis of the deposited data

How the results depend on the processing

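The number of genes passing was 1 with the other scaling, limma-voom, the fit that was not robust and the GC correction. It was 12 with no filter on low counts, 31 with DESeq2, 2 with only the 2 groups fitted and 4 at an adjusted p under 0.1. With only the 2 groups fitted, Gm3893 passed beside Tmem181b-ps and was higher in saline (log2 fold change 1.76; adjusted p = 0.00367, edgeR). Gm3893 also passed, in the same direction, with DESeq2, with the replicate block and without either romidepsin library. It did not pass in the main fit. Leaving out 1 library gave 1 to 54 passing genes and 829 to 1646 genes at an unadjusted p under 0.05. The highest count of passing genes, 54, came without wild-type replicate 3; leaving out saline replicate 1 gave 9, saline replicate 3 gave 3, and either romidepsin library gave 2. The cause was not tested. Tmem181b-ps passed under all 16 of these alternatives of the fit. Of 136 named genes under these 16 settings, no direction reversed and 51 gene and setting combinations newly passed. Apart from Shank3, these genes were chosen by p or size of change in the same counts. That choice made a kept direction likely, so the lack of reversals is no independent check. Of the medians of the 30 lists, 467 moved by less than the spread between libraries and 13 by more, among them pericyte genes at -0.29 without saline replicate 1, synaptic adhesion at 0.05 without saline replicate 2, potassium channels at -0.07 without wild-type replicate 3, scaffolds at -0.07 to -0.05 and glutamate receptors at -0.01 to 0.06.

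Same-numbered wild-type and saline libraries had deviations from their group means correlated at r = -0.18, 0.02 and -0.04 across genes. No library correlated best with its own number. The labels do not say that a number is shared between groups. With 3 libraries a group these values cannot settle whether samples were paired. With the replicate block 4 genes passed and 1240 reached an unadjusted p under 0.05.

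With 3 libraries a group, and saline replicate 3 at 7783537 counts, genes with a mean log2 CPM below 2 have wide intervals (0.79 to either side).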

Other observations

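These features were chosen after their values were seen. On the X chromosome 47 of 519 tested genes were higher (9.06%) and 13 lower at an unadjusted p under 0.05, against 3.59% and 4.80% of all genes. Leaving out saline replicate 2 gave 27 higher (5.24%, against 2.43% of all genes in that fit), and the GC correction gave 41 (7.90%, against 3.77%). The densest stretch lies there (chrX:136168984-136271978, GRCm38.p6): of the 6 neighbouring tested genes Tceal8, Tceal5, Bex1, Tceal7, Wbp5 and Ngfrap1, 5 were higher. The Tceal and Bex genes are families of similar sequence, and their counts are uncertain.

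Pituitary hormone transcripts were few and uneven. Growth hormone (Gh) had 1, 0 and 0 raw counts in wild type and 13, 96 and 19 in saline. Prolactin (Prl) had 0, 0 and 1 counts in wild type and 1, 12 and 2 in saline. The shared alpha subunit Cga had 11 counts in saline replicate 2 and 0 in the 5 other libraries. Pomc, in contrast, had 28, 17 and 25 counts in wild type and 32, 27 and 9 in saline. Lhb had 2, 2 and 0 counts in wild type and 0, 0 and 0 in saline. Tshb had 2, 2 and 1 counts in wild type and 3, 0 and 1 in saline, and Fshb had 0 in each of these libraries.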
